A study of Mus musculus with 6 samples.

Results

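The genes described here were 49 mouse genes of Wnt signalling, out of 39179 genes counted. They were chosen by symbol, through the Ensembl gene ID of each row, and not by level, but with earlier results of these data known. They comprised 15 Wnt ligands, 2 genes needed for ligand secretion, 9 Frizzled receptors, 5 co-receptors, 7 antagonists, 6 genes of the R-spondin axis, and 5 nuclear factors or targets. RNA was sequenced from 2 subsets of cortical thymic epithelial cells (cTEC), the stromal cells that drive early thymocyte development. Cxcl12DsRed- cTEC, the subset without the reporter, were set against Cxcl12DsRed+ cTEC, with 3 libraries each. Experiments A, B and C each gave 1 library per subset. Both subsets came from untreated 10-week-old mice that carry DsRed knocked into *Cxcl12* on a C57BL/6 background, and both were sorted as CD45-EpCAM1+UEA1-Ly51+ cells and then divided by DsRed. The paper's text describes the libraries of a subset as independent biological replicates. A figure legend on the same sequencing speaks instead of a technical triplicate from 1 experiment, representative of 3 separately sorted replicates.

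Wnt proteins are secreted lipid-modified ligands that bind Frizzled receptors. With the co-receptors Lrp5 and Lrp6 they stabilise β-catenin, which acts in the nucleus through Tcf and Lef factors, while other ligands, Wnt5a and Wnt11 among them, often act through Ror or Ryk receptors without β-catenin. Secreted antagonists and the ubiquitin ligases Znrf3 and Rnf43 restrain the pathway, and in mice Wnt ligands are known to regulate *Foxn1*, the master transcription factor of thymic epithelium.

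Depth was 34574900 to 44969195 counts in genes in Cxcl12DsRed- libraries and 38875590 to 51042679 in Cxcl12DsRed+ libraries. The reporter was counted 580 to 1129 times in Cxcl12DsRed- libraries and 45495 to 79903 times in Cxcl12DsRed+ libraries, so the reporter matched the label in all 6. Levels below are CPM, counts scaled to a common library size by TMM. The 10 cTEC markers were present in both subsets, and all were lower without overlap in Cxcl12DsRed- cTEC. They summed to 2342 to 3056 CPM there, against 10116 to 18433 CPM in Cxcl12DsRed+ cTEC, and 3 of the 10 passed the quasi-likelihood test. Among these 3 was *Cxcl12* itself, whose direction was set by sorting on a reporter knocked into that gene. The Cxcl12DsRed- library of experiment C was about as close to the Cxcl12DsRed+ libraries as to its own group. Its correlation across genes was 0.802 to 0.866 with the Cxcl12DsRed+ libraries. With the Cxcl12DsRed- libraries of A and B it was 0.822 and 0.769, and those of A and B correlated at 0.773 with each other. The Cxcl12DsRed- library of B correlated at 0.663 to 0.773 with the other libraries. It had the fewest counts in genes, and the highest shares of reads in no gene (9.353%) and aligned to several places (9.069%). Markers of other cells were also detected. Tuft cell markers summed to 464 to 2533 CPM in Cxcl12DsRed- cTEC and 36.2 to 38.4 CPM in Cxcl12DsRed+ cTEC, and endothelial markers to 40.6 to 105 CPM in Cxcl12DsRed- cTEC and 577 to 4193 CPM in Cxcl12DsRed+ cTEC. In such bulk samples, fewer cells of a type and less RNA per cell cannot be told apart.

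Of the 49 Wnt genes, 40 had enough counts to be tested. None passed 0.05 in edgeR's quasi-likelihood test after p-values were adjusted over all 15576 genes by Benjamini-Hochberg, by which 0.449% of all genes were called higher and 0.173% lower in Cxcl12DsRed- cTEC. At an unadjusted p under 0.05 there were 5 higher and 1 lower Wnt genes, 15.0% of the 40, beside 11.8% of all genes tested (7.02% higher and 4.80% lower). These were *Wnt5a*, *Wnt11*, *Dkk2*, *Dkk3* and *Fzd7*, all higher in Cxcl12DsRed- cTEC, and *Fzd4*, which was lower. They were also the 6 Wnt genes whose libraries did not overlap between subsets, again 15.0% (12.5% higher and 2.50% lower). Of all genes tested, 19.0% did not overlap (9.73% higher and 9.32% lower). These counts moved with single libraries. Without the Cxcl12DsRed+ library of C, 10 of 43 Wnt genes were lower without overlap in Cxcl12DsRed- cTEC (23.3%, beside 15.3% of all genes), and without the Cxcl12DsRed- library of B, 9 of 44 were higher (20.5%, beside 14.8%). In some other omissions the Wnt share was below that of all genes. Without the Cxcl12DsRed- library of C, 12.5% of Wnt genes were higher without overlap, beside 17.9% of all genes. Without the Cxcl12DsRed+ library of B, 2.33% were lower without overlap, beside 12.4%. The result depended on the test. With edgeR's likelihood ratio test, 3 Wnt genes were called higher (*Wnt5a*, *Wnt11* and *Dkk2*) and 1 lower (*Fzd4*), 10% in all, beside 3.53% of all genes higher and 2.12% lower. DESeq2 called the same 4, beside 4.68% of all genes higher and 2.51% lower, while limma with voom called 0 Wnt genes, beside 0.0193% of all genes higher and 0.00642% lower. The median log2 fold change, Cxcl12DsRed- over Cxcl12DsRed+, was −0.11 over the 40 Wnt genes and 0.02 over all genes tested, and 28 of the 40 (70.0%) lay within 2-fold, beside 73.5% of all genes.

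**Figure D1:**
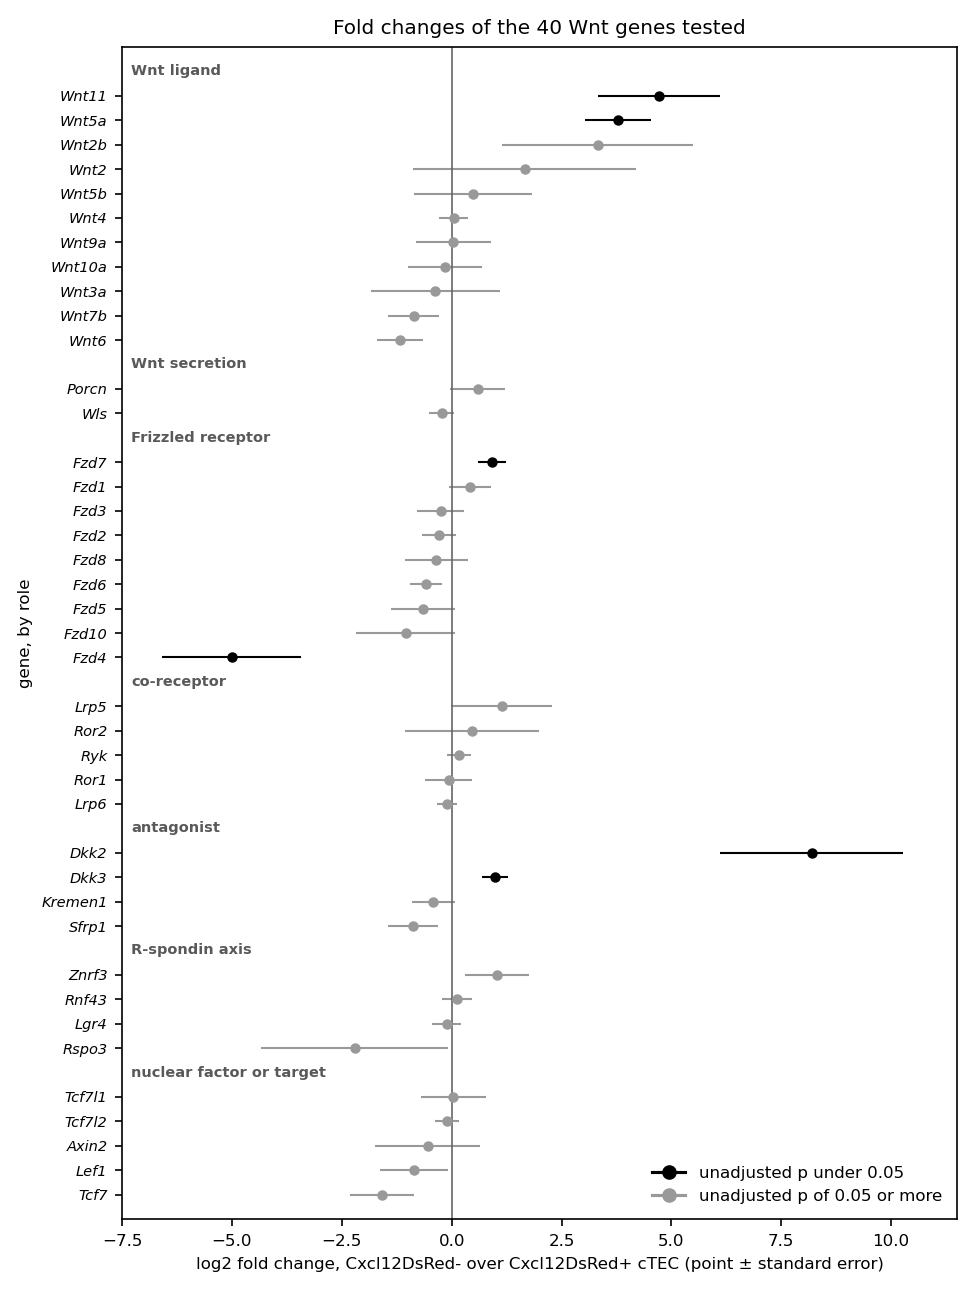
Log2 fold change of each of the 40 Wnt genes tested, Cxcl12DsRed- over Cxcl12DsRed+ cTEC, on the horizontal axis, with genes grouped by role down the page (points with standard errors, 3 libraries per subset). The 6 genes in black had an unadjusted quasi-likelihood p under 0.05, and the other 34, in grey, did not.

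Among the ligands, *Wnt5a* had the smallest p. This ligand of the β-catenin-independent branch lies on chromosome 14 from 28504750 to 28527448 (GRCm38, counted over exons), and had 16.2, 44.5 and 8.44 CPM in the Cxcl12DsRed- libraries of A, B and C, against 1.51, 1.81 and 1.68 CPM in the Cxcl12DsRed+ libraries. Every Cxcl12DsRed- library was above every Cxcl12DsRed+ library, and the Cxcl12DsRed+ libraries were nearly level. The ratio of Cxcl12DsRed- over Cxcl12DsRed+ was 10.7 (A), 24.5 (B) and 5.04 (C), and the fitted log2 fold change was 3.79 (standard error 0.75), or 2.88 without the Cxcl12DsRed- library of B. Its adjusted p was 0.0867 by edgeR's quasi-likelihood test, 2.88e-04 by the likelihood ratio test and 4.52e-06 by DESeq2. Blocking on experiment gave 0.179 in the quasi-likelihood test, which then called 0.334% of all genes higher and 0.135% lower. The antisense gene *Gm2670* overlaps its exons, and since the strand setting is not stated, reads of the pair cannot be told apart. That entry held 45 counts over all libraries, beside 2740 for *Wnt5a*.

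*Wnt11*, another ligand of that branch, had 5.40, 13.7 and 3.66 CPM in the Cxcl12DsRed- libraries of A, B and C, against 0.0189, 0.605 and 0.232 CPM in the Cxcl12DsRed+ libraries. All Cxcl12DsRed- libraries were again higher, and its level in the Cxcl12DsRed+ library of A was a single count. The log2 fold change was 4.72 (standard error 1.39), with an adjusted p of 0.211 by edgeR's quasi-likelihood test, 0.0206 by the likelihood ratio test and 0.00218 by DESeq2. It was 3.98 without the Cxcl12DsRed- library of B and 5.91 without the Cxcl12DsRed+ library of B.

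The remaining ligands with full values overlapped between the subsets. *Wnt4*, a ligand that thymic epithelium is known to make, had 77.4, 81.7 and 54.2 CPM in Cxcl12DsRed- libraries and 72.6, 91.9 and 42.1 CPM in Cxcl12DsRed+ libraries. Its highest and second-highest libraries belonged to different subsets, and the log2 fold change was 0.05 (standard error 0.33). Per kilobase of exon it was the most abundant ligand, at 17.0 CPM per kb in Cxcl12DsRed- cTEC and 16.4 CPM per kb in Cxcl12DsRed+ cTEC. *Wnt6* had 6.58, 12.2 and 9.84 CPM in Cxcl12DsRed- libraries and 26.2, 28.3 and 10.5 CPM in Cxcl12DsRed+ libraries. The Cxcl12DsRed+ libraries of A and B were the highest, and that of C lay among the Cxcl12DsRed- libraries (log2 fold change −1.18, standard error 0.52). *Wnt7b*, an activator of β-catenin signalling, had 12.7, 19.5 and 4.57 CPM in Cxcl12DsRed- libraries and 27.1, 23.8 and 15.8 CPM in Cxcl12DsRed+ libraries. It was lower in Cxcl12DsRed- cTEC within each experiment, but the libraries overlapped, and its log2 fold change was −0.86 (standard error 0.58). *Wnt10a* had 2.84, 21.6 and 12.0 CPM in Cxcl12DsRed- libraries and 16.3, 19.7 and 4.46 CPM in Cxcl12DsRed+ libraries. Both subsets spanned more than the difference between them. The adjusted p of these 4 ligands was 0.447 to 0.983 by edgeR's quasi-likelihood test.

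Of the other ligands tested, *Wnt2* reached 18.4 CPM in the Cxcl12DsRed- library of B and at most 0.541 CPM in the other Cxcl12DsRed- libraries, against 0 to 5.54 CPM in Cxcl12DsRed+ libraries. *Wnt2b* ranged over 0.0304 to 2.33 CPM in Cxcl12DsRed- libraries and 0 to 0.265 CPM in Cxcl12DsRed+ libraries. *Wnt3a*, *Wnt5b* and *Wnt9a* were between 0.139 and 9.92 CPM in Cxcl12DsRed- libraries and between 0.335 and 10.6 CPM in Cxcl12DsRed+ libraries. All of these overlapped. The 4 ligands not tested were *Wnt3* and *Wnt16*, with 0 counts in every library, *Wnt7a*, with 53 counts in the Cxcl12DsRed+ library of B alone, and *Wnt10b*, with 142 counts, of which 92 were in the Cxcl12DsRed- library of A.

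The genes for ligand release were expressed in both subsets. *Wls* encodes the carrier that takes Wnt proteins to the cell surface, and it had 420.3, 398 and 699 CPM in Cxcl12DsRed- libraries and 736, 547 and 494 CPM in Cxcl12DsRed+ libraries. The highest library was a Cxcl12DsRed+ one and the next a Cxcl12DsRed- one, with a log2 fold change of −0.23 (standard error 0.28). It had the highest level per kilobase of all 49 genes, at 57.5 CPM per kb in Cxcl12DsRed- cTEC and 67.4 CPM per kb in Cxcl12DsRed+ cTEC. *Porcn*, the acyltransferase that adds the lipid to Wnt proteins, had 13.0, 18.8 and 12.7 CPM in Cxcl12DsRed- libraries and 7.35, 4.46 and 17.7 CPM in Cxcl12DsRed+ libraries. In A and B the Cxcl12DsRed- library was higher, in C the Cxcl12DsRed+ library (log2 fold change 0.59, standard error 0.62).

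**Figure D2:**
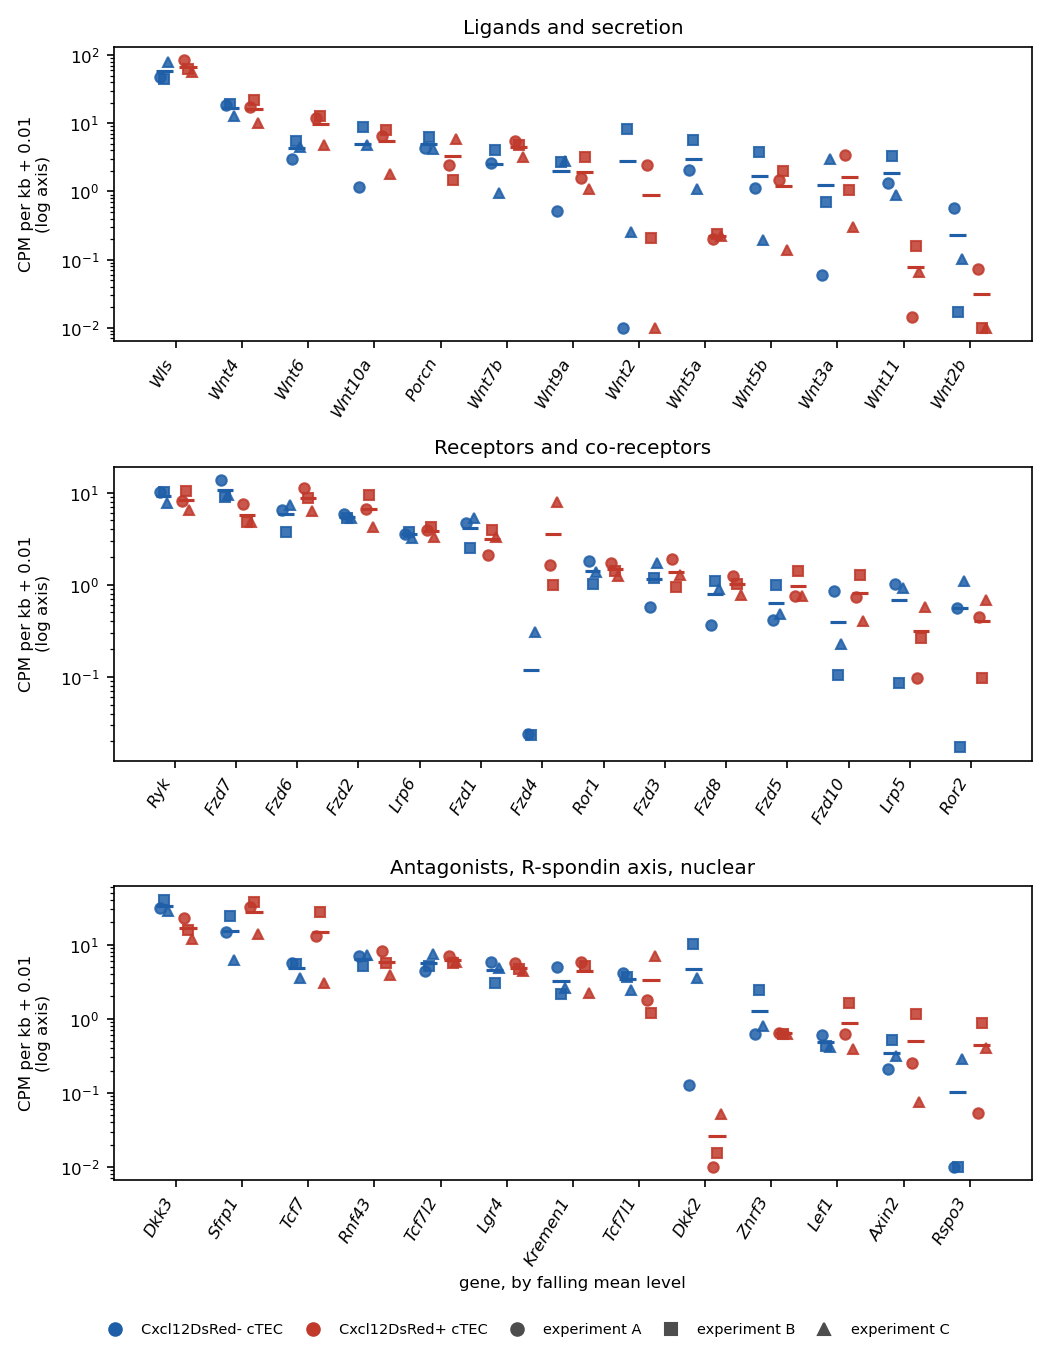
Level of each of the 40 Wnt genes tested, as CPM per kilobase of exon plus 0.01 on a log axis, for Cxcl12DsRed- cTEC (blue, left of each pair) and Cxcl12DsRed+ cTEC (red), with the experiment given by the symbol and the mean by a bar. *Wls* is the highest in both subsets, and *Wnt5a*, *Wnt11*, *Dkk2* and *Fzd4* show the widest gaps without overlap.

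The 9 Frizzled receptors were all tested, and 2 did not overlap between subsets, in opposite directions (22.2%, beside 19.0% of all genes tested). *Fzd7* had 62.2, 40.7 and 43.0 CPM in the Cxcl12DsRed- libraries of A, B and C, against 33.8, 21.6 and 21.6 CPM in the Cxcl12DsRed+ libraries. Every Cxcl12DsRed- library was higher, by a ratio of 1.84 in A, 1.88 in B and 1.99 in C, the most even of the 6 genes. The log2 fold change was 0.92 (standard error 0.32), with an adjusted p of 0.296 by edgeR's quasi-likelihood test. No other test run called it.

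*Fzd4*, the receptor of Norrin and a gene well known in endothelium, was the opposite case, with 0.0924, 0.0913 and 1.99 CPM in the Cxcl12DsRed- libraries of A, B and C, against 11, 6.53 and 53.2 CPM in the Cxcl12DsRed+ libraries. It was near absent from the Cxcl12DsRed- libraries of A and B. The Cxcl12DsRed+ library of C alone held 73.0% of its summed CPM. The log2 fold change was −5.01 (standard error 1.58), with an adjusted p of 0.254 by edgeR's quasi-likelihood test, 0.0204 by the likelihood ratio test and 0.00160 by DESeq2. Without the Cxcl12DsRed+ library of C the log2 fold change was −3.59, and without the Cxcl12DsRed- library of C it was −7.96.

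The endothelial marker sum, like *Fzd4*, was lower in every Cxcl12DsRed- library than in every Cxcl12DsRed+ library. Among Cxcl12DsRed- libraries, however, the sum was highest in A and *Fzd4* in C. The 9 markers summed to 105, 40.6 and 47.9 CPM in the Cxcl12DsRed- libraries of A, B and C, against 587, 577 and 4193 CPM in the Cxcl12DsRed+ libraries. They were highest in the Cxcl12DsRed+ library of C, as *Fzd4* was. Of the 9, 7 were lower without overlap in Cxcl12DsRed- cTEC, and 2 of these passed the quasi-likelihood test. No marker was at 0 in all libraries. *Pecam1*, an endothelial adhesion molecule, had 13.1, 1.67 and 3.37 CPM in Cxcl12DsRed- libraries and 135, 124 and 927 CPM in Cxcl12DsRed+ libraries. *Tek* and *Vwf* overlapped, and in A both were higher in Cxcl12DsRed- cTEC (35.2 against 29.8 CPM and 19.2 against 2.87 CPM). *Tspan12*, which encodes the partner of Fzd4 in Norrin signalling, had 46.3, 45.6 and 45.4 CPM in Cxcl12DsRed- libraries and 39.9, 47.3 and 156 CPM in Cxcl12DsRed+ libraries. Its high value also lay in the Cxcl12DsRed+ library of C. The 8 markers of pericytes and smooth muscle summed to 1051, 1012 and 755 CPM in Cxcl12DsRed- libraries and 1108, 957 and 1430.2 CPM in Cxcl12DsRed+ libraries. Their highest sum also lay in the Cxcl12DsRed+ library of C, but none of the 8 was separated between subsets. The part of endothelial cells, pericytes or smooth muscle in the *Fzd4* difference was not tested.

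The other Frizzled genes overlapped. *Fzd6* had 31.1, 17.9 and 35.1 CPM in Cxcl12DsRed- libraries and 53.4, 42.4 and 30.7 CPM in Cxcl12DsRed+ libraries. The Cxcl12DsRed+ libraries of A and B were the highest of the 6. *Fzd2* had 21.4, 19.5 and 19.5 CPM in Cxcl12DsRed- libraries and 24.1, 34.3 and 15.3 CPM in Cxcl12DsRed+ libraries, with the Cxcl12DsRed- libraries nearly level and inside the range of the others. *Fzd1* had 19.4, 10.6 and 22.1 CPM in Cxcl12DsRed- libraries and 8.75, 16.3 and 13.9 CPM in Cxcl12DsRed+ libraries. Its order of subsets differed between experiments, as did that of the next gene. *Fzd3* had 7.14, 15.2 and 21.8 CPM in Cxcl12DsRed- libraries and 24.0, 12.0 and 16.4 CPM in Cxcl12DsRed+ libraries. The log2 fold changes of these 4 receptor genes lay between −0.59 and 0.42, with adjusted p of 0.631 to 0.940 by edgeR's quasi-likelihood test. *Fzd5*, *Fzd8* and *Fzd10* ranged over 0.304 to 6.78 CPM in Cxcl12DsRed- libraries and 1.29 to 9.80 CPM in Cxcl12DsRed+ libraries.

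All 5 co-receptor genes overlapped as well. *Lrp6*, which pairs with Frizzled in β-catenin signalling, had 48.9, 51.6 and 44.0 CPM in Cxcl12DsRed- libraries and 53.9, 57.7 and 44.9 CPM in Cxcl12DsRed+ libraries. Its log2 fold change was −0.11, with the smallest standard error of the 40 genes (0.22). *Ryk*, a receptor tyrosine kinase-like protein that binds Wnt, had 45.5, 45.8 and 34.9 CPM in Cxcl12DsRed- libraries and 37.0, 46.7 and 29.6 CPM in Cxcl12DsRed+ libraries (log2 fold change 0.16, standard error 0.27). Per kilobase, *Ryk* was at 9.28 CPM per kb in Cxcl12DsRed- cTEC and 8.33 CPM per kb in Cxcl12DsRed+ cTEC. *Lrp5*, *Ror1* and *Ror2* were between 0.0304 and 10.3 CPM in Cxcl12DsRed- libraries and between 0.375 and 9.96 CPM in Cxcl12DsRed+ libraries.

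Among the antagonists, both Dickkopf genes with enough counts were higher in every Cxcl12DsRed- library. They were 2 of the 4 antagonists tested (50.0%), beside 9.73% of all genes tested that were higher without overlap. *Dkk2*, whose protein binds the Lrp5 and Lrp6 co-receptors, had 0.439, 37.8 and 12.9 CPM in the Cxcl12DsRed- libraries of A, B and C, against 0, 0.0209 and 0.155 CPM in the Cxcl12DsRed+ libraries. In the Cxcl12DsRed+ libraries this came to 7 counts in all, and the Cxcl12DsRed- library of A was far below those of B and C. The fitted log2 fold change was 8.19 (standard error 2.09) and depends on the prior count. Without the Cxcl12DsRed- library of B it was 6.81, and without the Cxcl12DsRed+ library of C 10.32. Its adjusted p was 0.147 by edgeR's quasi-likelihood test, 0.00209 by the likelihood ratio test and 3.75e-06 by DESeq2.

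*Dkk3*, a divergent member of the family, had 104, 136 and 95.9 CPM in the Cxcl12DsRed- libraries of A, B and C, against 77.8, 52.9 and 39.6 CPM in the Cxcl12DsRed+ libraries. The ratio was 1.34 (A), 2.58 (B) and 2.42 (C), and the log2 fold change was 0.98 (standard error 0.30, adjusted p = 0.236 by edgeR's quasi-likelihood test). Per kilobase it was the most abundant antagonist in Cxcl12DsRed- cTEC, at 33.4 CPM per kb, against 16.9 CPM per kb in Cxcl12DsRed+ cTEC.

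*Sfrp1*, a secreted protein that binds Wnt, had 63.7, 107 and 27.1 CPM in the Cxcl12DsRed- libraries of A, B and C, against 139, 165 and 61.2 CPM in the Cxcl12DsRed+ libraries. It was lower in Cxcl12DsRed- cTEC within each experiment, with a ratio of 0.460 in A, 0.649 in B and 0.443 in C, although the subsets overlapped across experiments. The log2 fold change was −0.88 (standard error 0.56). Its adjusted p was 0.643 by edgeR's quasi-likelihood test and 0.0387 by the likelihood ratio test with the experiment as a block, by which 4.13% of all genes were called higher and 2.67% lower. Per kilobase it was at 15.1 CPM per kb in Cxcl12DsRed- cTEC and 27.8 CPM per kb in Cxcl12DsRed+ cTEC, the reverse of the order of *Dkk3*. *Kremen1*, the Dickkopf co-receptor known to be needed for normal thymic architecture in mice, had 38.8, 16.6 and 19.8 CPM in Cxcl12DsRed- libraries and 44.3, 39.3 and 17.0 CPM in Cxcl12DsRed+ libraries (log2 fold change −0.42, standard error 0.49), with overlap.

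**Figure D3:**
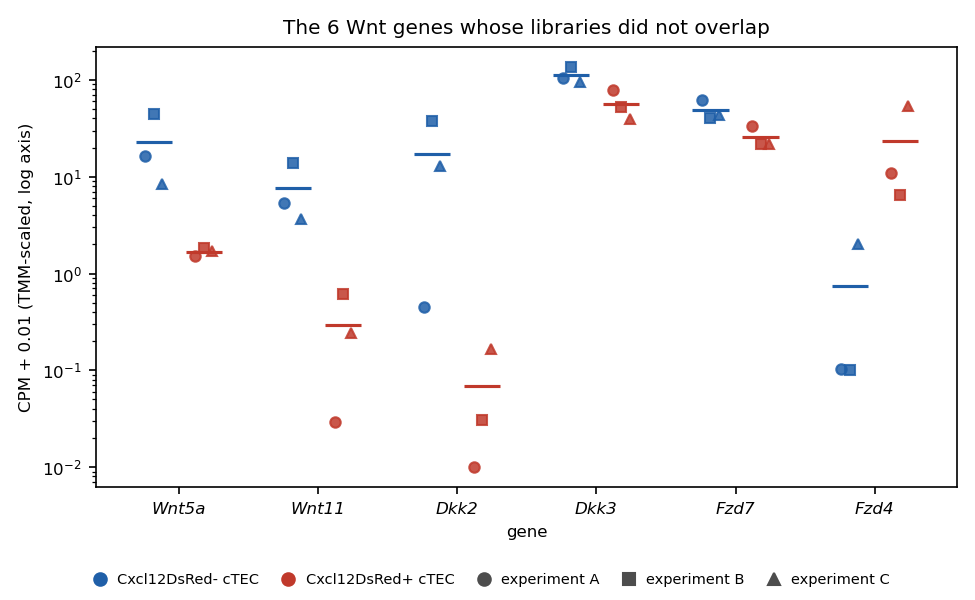
CPM plus 0.01 on a log axis for the 6 Wnt genes whose libraries did not overlap, with Cxcl12DsRed- cTEC in blue to the left of Cxcl12DsRed+ cTEC in red, 1 symbol per experiment and a bar at the mean of 3 libraries. *Wnt5a*, *Wnt11*, *Dkk2*, *Dkk3* and *Fzd7* are higher in every Cxcl12DsRed- library, and *Fzd4* is higher in every Cxcl12DsRed+ library.

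The 3 antagonist genes not tested were each counted mostly in 1 library. All 220 counts of *Wif1*, a secreted Wnt inhibitor, and all 119 counts of *Dkk1* fell in the Cxcl12DsRed- library of A. *Sfrp2* had 10.1 CPM in the Cxcl12DsRed- library of C, 88.6% of its summed CPM, and 0.0515 to 1.15 CPM in Cxcl12DsRed+ libraries. A single library with reads gives no comparison of the subsets.

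To show the sequence at the start of the genes that stood apart, promoter windows of 300 bases (250 before and 50 after the start) were taken from RefSeq, build GRCm38.p6, in which 33 of the 49 genes matched. Of the 6 genes, windows are shown for *Wnt11* (chr7:98834862-98835161, plus strand), *Dkk2* (chr3:132085042-132085341, plus strand), *Fzd7* (chr1:59481897-59482196, plus strand) and *Fzd4* (chr7:89404116-89404415, plus strand). *Wnt5a* and *Dkk3* are named only. Of 2 windows for *Wnt11*, the one closer to its annotated start is shown. Capitals mark the TCF/LEF letters CTTTGAT or CTTTGTT and the letters GACGC known as the core of FOXN1 sites, each on either strand.
Wnt11: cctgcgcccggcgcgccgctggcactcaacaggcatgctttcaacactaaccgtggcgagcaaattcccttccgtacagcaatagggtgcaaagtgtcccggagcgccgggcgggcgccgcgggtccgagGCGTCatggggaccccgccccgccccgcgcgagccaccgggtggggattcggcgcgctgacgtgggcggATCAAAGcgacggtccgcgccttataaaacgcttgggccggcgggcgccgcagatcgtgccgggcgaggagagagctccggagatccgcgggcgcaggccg
Dkk2: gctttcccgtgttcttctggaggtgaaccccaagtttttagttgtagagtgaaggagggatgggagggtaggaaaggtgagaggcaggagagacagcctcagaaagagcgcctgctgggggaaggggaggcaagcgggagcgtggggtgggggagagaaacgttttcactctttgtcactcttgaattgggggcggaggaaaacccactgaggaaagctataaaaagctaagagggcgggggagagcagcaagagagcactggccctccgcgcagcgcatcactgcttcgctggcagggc
Fzd7: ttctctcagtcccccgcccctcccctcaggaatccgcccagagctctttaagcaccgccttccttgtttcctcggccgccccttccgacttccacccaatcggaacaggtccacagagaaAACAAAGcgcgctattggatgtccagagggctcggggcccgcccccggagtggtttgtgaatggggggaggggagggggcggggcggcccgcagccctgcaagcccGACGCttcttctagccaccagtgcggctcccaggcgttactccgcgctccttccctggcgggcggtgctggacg
Fzd4: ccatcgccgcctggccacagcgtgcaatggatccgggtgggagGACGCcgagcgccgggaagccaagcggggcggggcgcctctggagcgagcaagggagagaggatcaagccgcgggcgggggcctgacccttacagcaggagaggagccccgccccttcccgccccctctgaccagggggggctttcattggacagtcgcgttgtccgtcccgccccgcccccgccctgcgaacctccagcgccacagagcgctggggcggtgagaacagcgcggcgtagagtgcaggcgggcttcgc
*Wnt11* held ATCAAAG, the reverse complement of CTTTGAT, 51 bases before the start, and GCGTC. *Fzd7* held AACAAAG, the reverse complement of CTTTGTT, 130 bases before the start, and GACGC. *Fzd4* held GACGC alone, and *Dkk2* held none of these letters. CTTTGAT in either direction was in 3.73% of 32851 promoter windows, CTTTGTT in 5.85% and GACGC in 27.2%. These shares were not matched for GC content. It was 71.3% in the window of *Wnt11*, 66.7% in *Fzd7*, 72.7% in *Fzd4* and 57.7% in *Dkk2*. The marked stretches are matches of letters and show no binding. The motifs do not overlap each other in these windows.

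In the R-spondin axis, which sets the number of Frizzled receptors at the surface, all 4 genes tested overlapped. *Lgr4*, an R-spondin receptor, had 33.9, 17.9 and 28.2 CPM in Cxcl12DsRed- libraries and 32.9, 27.1 and 26.1 CPM in Cxcl12DsRed+ libraries (log2 fold change −0.11, standard error 0.33). *Rnf43* and *Znrf3* encode the ligases that remove Frizzled. *Rnf43* had 45.3, 34.0 and 46.9 CPM in Cxcl12DsRed- libraries and 53.7, 36.7 and 25.2 CPM in Cxcl12DsRed+ libraries, with the lowest value in a Cxcl12DsRed+ library. *Znrf3* had 4.78, 19.0 and 6.25 CPM in Cxcl12DsRed- libraries and 4.99, 4.86 and 4.87 CPM in Cxcl12DsRed+ libraries. The Cxcl12DsRed+ libraries of *Znrf3* were nearly level, and the Cxcl12DsRed- library of B alone stood well above them (log2 fold change 1.03, standard error 0.72). *Rspo3*, an R-spondin, was at 0 to 0.861 CPM in Cxcl12DsRed- libraries and 0.132 to 2.69 CPM in Cxcl12DsRed+ libraries. *Rspo1* had 3.07 CPM in the Cxcl12DsRed- library of C, which held 92.6% of its summed CPM, and *Lgr5* had at most 1.70 CPM in Cxcl12DsRed- libraries and 2.73 CPM in Cxcl12DsRed+ libraries. Neither was tested.

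The nuclear factors and the feedback target were not separated between the subsets. *Tcf7*, the Tcf factor best known from developing T cells, had 14.9, 14.3 and 9.17 CPM in the Cxcl12DsRed- libraries of A, B and C, against 34.1, 72.6 and 7.96 CPM in the Cxcl12DsRed+ libraries. The Cxcl12DsRed+ libraries of A and B were the highest and that of C the lowest of the 6, and the log2 fold change was −1.58 (standard error 0.73, adjusted p = 0.487 by edgeR's quasi-likelihood test). *Lef1*, also active in thymocytes, was at 3.59 to 5.29 CPM in Cxcl12DsRed- libraries and 3.32 to 14.0 CPM in Cxcl12DsRed+ libraries, and its highest value lay in the same library as that of *Tcf7*, the Cxcl12DsRed+ library of B.

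Thymocyte markers were also highest in that library. The 15 markers summed to 148, 144 and 66.0 CPM in the Cxcl12DsRed- libraries of A, B and C, against 138, 458 and 63.4 CPM in the Cxcl12DsRed+ libraries. None of the 15 was separated between subsets, and no marker was at 0 in all libraries. The part of thymocytes in the levels of *Tcf7* and *Lef1* was not tested.

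*Tcf7l1*, which mostly represses its targets, had 16.0, 14.5 and 9.67 CPM in Cxcl12DsRed- libraries and 6.94, 4.61 and 27.6 CPM in Cxcl12DsRed+ libraries. Its order of subsets was opposite in C to that in A and B. *Tcf7l2* had 38.8, 45.4 and 65.5 CPM in Cxcl12DsRed- libraries and 61.3, 50.0 and 50.2 CPM in Cxcl12DsRed+ libraries, with overlap and a log2 fold change of −0.11 (standard error 0.27). *Axin2*, the feedback target that is commonly used to read β-catenin signalling, was low in every library, at 1.09, 2.77 and 1.65 CPM in Cxcl12DsRed- libraries and 1.34, 6.36 and 0.361 CPM in Cxcl12DsRed+ libraries. The Cxcl12DsRed+ libraries spanned both the highest and the lowest *Axin2* value, and the log2 fold change was −0.55 (standard error 1.19, adjusted p = 0.940 by edgeR's quasi-likelihood test).

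Markers of further cells differed between the subsets beside the genes that were higher in Cxcl12DsRed- cTEC. The 10 tuft cell markers were all higher without overlap, and 4 of them passed the quasi-likelihood test, with sums of 2533, 767 and 464 CPM in the Cxcl12DsRed- libraries of A, B and C, against 38.4, 36.2 and 37.0 CPM in the Cxcl12DsRed+ libraries. The highest tuft sum was in A. The 9 fibroblast markers summed to 3876, 3689 and 5034 CPM in Cxcl12DsRed- libraries and 1719.8, 1869 and 1116 CPM in Cxcl12DsRed+ libraries. Only 1 of the 9, *Dcn*, was higher without overlap, and it made up most of the sum. It had 3469, 3092 and 3118 CPM in Cxcl12DsRed- libraries and 1491, 1512 and 633 CPM in Cxcl12DsRed+ libraries. The 8 myeloid markers summed to 523, 874 and 138 CPM in Cxcl12DsRed- libraries and 24.0, 67.2 and 87.0 CPM in Cxcl12DsRed+ libraries, with 2 of 8 higher without overlap. These 2 were *Lyz2*, which made up most of the sum, and *Itgam*. Among Cxcl12DsRed- libraries *Lyz2* was highest in B (803 CPM) and *Itgam* in A (46.3 CPM). The 5 markers of mesothelium and nerve summed to 1080.2, 699 and 277 CPM in Cxcl12DsRed- libraries and 9.73, 15.3 and 0.387 CPM in Cxcl12DsRed+ libraries, nearly all from the mesothelial gene *Msln*, with 1 of 5 higher without overlap. The sum of the 9 markers of medullary thymic epithelium was mostly *Ccl21a* and overlapped between subsets. It was 7243, 7314 and 3787 CPM in Cxcl12DsRed- libraries and 7349.8, 9366 and 2125 CPM in Cxcl12DsRed+ libraries. Of the 9 markers, *Cldn3*, *Cldn4* and *Cd80* were higher without overlap. *Cldn3* passed the quasi-likelihood test, with 419.5, 433 and 74.4 CPM in Cxcl12DsRed- libraries and 0.964, 2.82 and 2.32 CPM in Cxcl12DsRed+ libraries. Among Cxcl12DsRed- libraries, *Wnt5a*, *Wnt11*, *Dkk2* and *Dkk3* were highest in B, and so was the myeloid sum, mostly *Lyz2*. The medullary sum was nearly level in A and B (7243 and 7314 CPM). The tuft sum and that of mesothelium and nerve were highest in A, and the fibroblast sum in C. No marker of these 5 lists was at 0 in all libraries, and the part of these cells in the levels of *Wnt5a*, *Wnt11*, *Dkk2* and *Dkk3* was not tested.

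**Figure D4:**
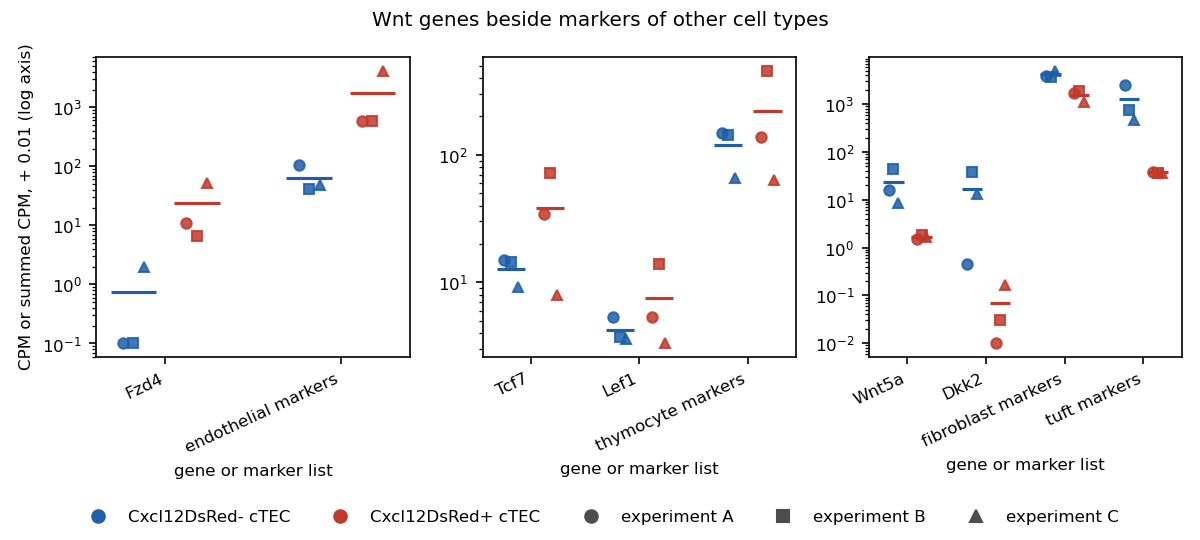
CPM of 5 Wnt genes and summed CPM of marker lists (plus 0.01, log axes that differ between panels), with Cxcl12DsRed- cTEC in blue to the left of Cxcl12DsRed+ cTEC in red, 1 symbol per experiment and a bar at the mean. *Fzd4* and the endothelial sum are both highest in the Cxcl12DsRed+ library of C, and *Tcf7*, *Lef1* and the thymocyte sum in that of B. Among Cxcl12DsRed- libraries the tuft sum is highest in A, *Wnt5a* and *Dkk2* in B, and the fibroblast sum, mostly *Dcn*, in C.

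The other genes of the pathway were read from a list of 87, which held further modulators, the β-catenin destruction complex, nuclear cofactors, known targets and planar cell polarity genes. Of these, 70 were tested and 0 passed edgeR's quasi-likelihood test in either direction. At an unadjusted p under 0.05, 3 were higher and 1 lower in Cxcl12DsRed- cTEC (5.71%, beside 11.8% of all genes), the likelihood ratio test called 1 higher and 1 lower (2.86%, beside 3.53% of all genes higher and 2.12% lower), DESeq2 called 1 higher (1.43%, beside 4.68% higher and 2.51% lower), and 5 higher and 3 lower did not overlap (11.4%, beside 19.0% of all genes). *Celsr3*, an atypical cadherin of planar polarity, had 3 counts in Cxcl12DsRed- libraries and 96 counts in Cxcl12DsRed+ libraries. Its ratio of Cxcl12DsRed+ over Cxcl12DsRed- was 26.8 with a 95% counting interval of 8.91 to 132 (adjusted p = 0.0956 by the quasi-likelihood test, 0.0126 by the likelihood ratio test and 0.110 by DESeq2).

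*Cd44*, a cell adhesion gene known as a β-catenin target, averaged 118 ± 30.8 CPM in Cxcl12DsRed- cTEC and 54.8 ± 14.1 CPM in Cxcl12DsRed+ cTEC (SD, n = 3 each). Its adjusted p was 0.157 by edgeR's quasi-likelihood test, 0.0432 by the likelihood ratio test and 0.0180 by DESeq2. *Apc*, the scaffold of the destruction complex, averaged 29.7 ± 3.82 CPM in Cxcl12DsRed- cTEC and 18.0 ± 3.32 CPM in Cxcl12DsRed+ cTEC, also without overlap. The corepressor gene *Tle4* and the kinase gene *Csnk1g3* had log2 fold changes of 0.85 and −1.37. The libraries of these 2 genes did not overlap either. *Cdx1*, a homeobox gene of intestinal epithelium, averaged 12.1 ± 13.0 CPM in Cxcl12DsRed- cTEC and 0.732 ± 1.03 CPM in Cxcl12DsRed+ cTEC. Its libraries overlapped, but it was higher in Cxcl12DsRed- cTEC within each experiment, with ratios of 38.7 (A), 13.7 (B) and 20.5 (C). Its adjusted p was 0.144 by the likelihood ratio test and 0.00104 by that test with the experiment as a block. The adjusted p of *Apc*, *Tle4*, *Csnk1g3* and *Cdx1* was 0.415 to 0.447 by edgeR's quasi-likelihood test.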

How the data were processed

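Poly(A) RNA from sorted cTEC was amplified with the SMARTer Ultra Low Input kit and sequenced on a NovaSeq. After trimming by Trimmomatic 0.36 and alignment to mm10 by STAR 2.7.3a, the authors counted reads per gene with HTSeq 0.12.4 (intersection-nonempty) and deposited whole-number counts for 6 libraries. The annotation release and the strand setting were not given in the sources used here. Of 39277 entries, 39179 were genes; 92 spike-ins (0 counts), 5 summaries and the DsRed reporter entered neither library sizes nor tests. Reads in no gene came to 5.875% to 9.353% of the counts in genes, and reads aligned to several places to 5.607% to 9.069%. Symbols and coordinates came from GENCODE M21 (GRCm38, the genome called mm10), which held 37693 gene IDs.

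The tests ran in edgeR 4.0.16 (R 4.3.3). The filter was filterByExpr (minimum count 10), scaling was by TMM, and 15576 genes were tested by the quasi-likelihood test at a Benjamini-Hochberg adjusted p of 0.05, with a prior count of 0.125. Fold changes are Cxcl12DsRed- over Cxcl12DsRed+ cTEC. The alternatives were the likelihood ratio test, DESeq2 1.42.0 (532 adjusted p-values stayed not available), limma 3.58.1 with voom, the experiment as a block, RLE factors, library totals, other filters, and omission of single libraries or experiments. Libraries of the same labelled experiment (A, B or C) were the pairs of the block. As a check, each library's departure from its subset mean was correlated over genes with that of its partner (0.0106, 0.0778 and 0.0716) and of the other libraries (−0.0948 to 0.00374). Scripts were tested on simulated data. Counting intervals cover counting error only, since amplified reads are not independent molecules.

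The genes and lists were chosen with earlier results of these data known. Values in every library are given for genes with an unadjusted p under 0.05 or a mean of at least 10 CPM in a subset, and the 6 other pathway genes with the smallest p are named. *Lef1* and *Axin2* are described beyond this rule, chosen after their values were seen. So are *Tspan12*, *Pecam1*, *Tek*, *Vwf*, *Lyz2*, *Itgam*, *Dcn*, *Ccl21a*, *Cxcl12*, *Msln*, *Cldn3*, *Cldn4* and *Cd80*.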

Additional observations from a re-analysis of the deposited data

How the results depend on the processing

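No Wnt gene was called by edgeR's quasi-likelihood test with RLE factors, library totals, other filters, the experiment as a replicate block, or any library or experiment left out (0 higher and 0 lower in each). The choice of test moved the calls. The likelihood ratio test called 3 Wnt genes higher and 1 lower, 1 other pathway gene higher and 1 lower, and 550 of all genes higher and 330 lower. DESeq2 called 3 and 1 Wnt genes, 1 other pathway gene higher, and 704 and 377 of all genes. The likelihood ratio test with the replicate block called 3 Wnt genes higher and 2 lower, adding *Sfrp1*, 2 other pathway genes higher and 1 lower, and 644 and 416 of all genes. Limma with voom called 3 of all genes higher and 1 lower, and fitting without a filter called 122 and 46, against 70 and 27 in the analysis as reported. With the replicate block the quasi-likelihood test called 73 genes, *Wnt5a* had a log2 fold change of 3.46 (adjusted p = 0.179, beside 0.0867 without the block), and no call among Wnt genes changed. Leaving out libraries or experiments gave 0 to 120 genes higher and 0 to 19 lower, with 120 higher and 19 lower without the Cxcl12DsRed- library of C, 1 higher and 0 lower without the Cxcl12DsRed+ library of C, and 0 either way without any 1 library of A or B. Wnt genes that did not overlap then numbered 5 to 9 higher (11.6% to 20.9% of those tested, beside 12.3% to 22.4% of all genes) and 1 to 13 lower. The lower count rested on C. It was 10 without its Cxcl12DsRed+ library (23.3%, beside 15.3% of all genes) and 13 without the experiment (33.3%, beside 25.6%). In the other omissions it was 1 to 4, each time a smaller share than that of all genes. The share was 2.33%, beside 12.4%, without the Cxcl12DsRed+ library of B. Without the Cxcl12DsRed- library of B it was 9.09%, beside 13.9%. The cause was not tested. *Wnt5a*, *Wnt11*, *Dkk2*, *Dkk3*, *Fzd7* and *Fzd4* kept their direction in all 18 alternatives. The log2 fold change of genes near no difference changed sign. *Wnt4* and *Tcf7l1* were at −0.01 with library totals, and *Tcf7l1* at −0.00 without a filter. With libraries or experiments left out, *Wnt4* ranged over −0.25 to 0.30, *Wnt10a* −0.86 to 0.43, *Wls* −0.68 to 0.05, *Fzd2* −0.57 to 0.06, *Fzd3* −0.73 to 0.35, *Ryk* −0.03 to 0.33, *Lgr4* −0.34 to 0.11, *Rnf43* −0.22 to 0.40, *Tcf7l1* −0.45 to 1.37 and *Tcf7l2* −0.43 to 0.12. With 3 libraries per subset, differences within the spread of these genes were not detectable, and genes under about 1 CPM rest on few counts.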

Other observations

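The library with the highest value differed among the Wnt genes. Of the 40 genes tested, 13 (32.5%) were highest in the Cxcl12DsRed+ library of B, beside 13.2% of all genes tested. These 13 were *Wnt4*, *Wnt6*, *Wnt9a*, *Fzd2*, *Fzd5*, *Fzd10*, *Lrp6*, *Ryk*, *Sfrp1*, *Rspo3*, *Axin2*, *Lef1* and *Tcf7*. The Cxcl12DsRed- library of B held the highest value of 9 (22.5%, beside 22.5% of all genes), namely *Wnt2*, *Wnt5a*, *Wnt5b*, *Wnt10a*, *Wnt11*, *Porcn*, *Dkk2*, *Dkk3* and *Znrf3*. The Cxcl12DsRed+ library of C, where *Fzd4* and the endothelial markers were highest, held the highest value of 2 Wnt genes (5%, beside 18.9% of all genes), *Fzd4* and *Tcf7l1*. These shares are a description and were not tested.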
